A study of Homo sapiens with 6 samples.

Results

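NF-κB subunits and the feedback inhibitors of the pathway were compared in cultured melanoma cells, the line WM115 derived from a primary tumour of the skin and the line WM266-4 derived from a metastasis in the skin. The set was given as a list of 10 gene symbols: the subunits NFKB1, NFKB2, REL, RELA and RELB, and the inhibitors NFKBIA, NFKBIE, NFKBIZ, TNFAIP3 and BIRC3. The word inhibitors is used as the label of that group, and inhibition of NF-κB by each gene was not measured. Each was matched to the gene symbol in the deposited table, and 10 of 10 were found among 17745 genes. Where a symbol had several rows, the row with the highest mean over all arrays was used. Each line was untreated, grown in DMEM with 10% serum, and measured in 3 biological repeats on Affymetrix arrays, the first on Human Gene 1.0 ST and repeats 2 and 3 on Human Gene 2.1 ST, with a different RNA kit for the first. Each group is 1 cell line, so a difference between the groups is a difference between 2 lines and cannot be assigned to tumour stage.

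NF-κB is a family of dimeric transcription factors that rest in the cytoplasm bound to IκB proteins. Receptors for tumour necrosis factor, interleukin-1 and microbial products activate the IκB kinase (IKK) complex, which marks IκB for destruction and so frees the dimer to enter the nucleus. Several of the genes that NF-κB switches on encode its own inhibitors, among them IκBα (NFKBIA) and the ubiquitin-editing enzyme A20 (TNFAIP3), which ends the signal in a feedback loop. In melanoma, NF-κB activity is known to drive inflammatory cytokines and survival genes. The arrays measured RNA, and neither nuclear NF-κB nor IκB protein was measured.

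The promoters of the 3 members that were lower in WM266-4 are shown first, since feedback inhibitors are known as NF-κB targets, and that of NFKB1, a subunit gene that did not pass the test, is shown beside them. The sequences are from RefSeq on GRCh38.p14 and run from 250 bases before to 50 bases after a transcript start. Capitals mark matches to the κB consensus, the motif bound by NF-κB dimers, searched on both strands.
NFKBIA (chr14:35404700-35404999, minus strand): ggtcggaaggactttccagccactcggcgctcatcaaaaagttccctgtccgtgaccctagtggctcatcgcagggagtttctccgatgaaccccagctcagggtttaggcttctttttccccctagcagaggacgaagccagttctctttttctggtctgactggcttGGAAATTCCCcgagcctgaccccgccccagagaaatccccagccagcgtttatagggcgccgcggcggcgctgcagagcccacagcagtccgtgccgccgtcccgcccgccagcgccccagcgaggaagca
TNFAIP3 (chr6:137867009-137867308, plus strand): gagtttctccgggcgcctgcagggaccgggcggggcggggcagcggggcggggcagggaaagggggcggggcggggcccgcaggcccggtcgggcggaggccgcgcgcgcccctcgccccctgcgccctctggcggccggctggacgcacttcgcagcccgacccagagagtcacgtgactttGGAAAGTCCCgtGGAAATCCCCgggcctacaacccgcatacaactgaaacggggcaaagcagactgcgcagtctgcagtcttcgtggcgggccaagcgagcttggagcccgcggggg
BIRC3 (chr11:102317234-102317533, plus strand): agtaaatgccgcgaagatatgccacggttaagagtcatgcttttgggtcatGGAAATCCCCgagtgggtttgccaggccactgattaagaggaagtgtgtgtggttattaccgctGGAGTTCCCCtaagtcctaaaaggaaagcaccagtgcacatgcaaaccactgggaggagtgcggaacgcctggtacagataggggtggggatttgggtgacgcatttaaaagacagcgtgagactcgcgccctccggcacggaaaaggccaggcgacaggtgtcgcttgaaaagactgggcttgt
NFKB1 (chr4:102501109-102501408, plus strand): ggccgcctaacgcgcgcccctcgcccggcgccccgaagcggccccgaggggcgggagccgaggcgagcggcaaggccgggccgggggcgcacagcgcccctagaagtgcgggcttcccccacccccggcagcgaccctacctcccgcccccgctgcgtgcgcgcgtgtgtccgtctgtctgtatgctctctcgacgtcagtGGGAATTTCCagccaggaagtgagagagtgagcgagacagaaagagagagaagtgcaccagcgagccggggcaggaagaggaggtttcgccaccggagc

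The NFKBIA window held 1 match, at bases -81 to -72 counted from the first transcribed base as 0. The TNFAIP3 window held 2 matches close together, at -67 to -58 and at -55 to -46. The BIRC3 window held 2, at -199 to -190 and at -135 to -126. The first NFKB1 window held 1, at -49 to -40, and its other window held 0. The promoter table had windows for 8 members, and 7 of these had a match in at least 1 window, against 13.3% of all 27305 genes in the table. By window, 9 of 13 windows of members held a match (69.2%). Of all 35116 windows, 11.3% held a match and 2.04% held at least 2. The members were chosen for their part in NF-κB signalling, and feedback inhibitors are known as its targets. Their higher share is therefore a description and not a test. Members that did not pass the expression test also had matches. REL had 2 overlapping ones from -47 to -37, and NFKBIZ had 1 in each of its windows. NFKB2 had 3 in 1 of its windows, 2 of them overlapping, 2 in another and 0 in the remaining window. RELA, which encodes the p65 subunit, had no match in either window. RELB and NFKBIE had no window and were not searched. A match describes letters in a window and does not show that NF-κB was bound there.

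**Figure D1:**
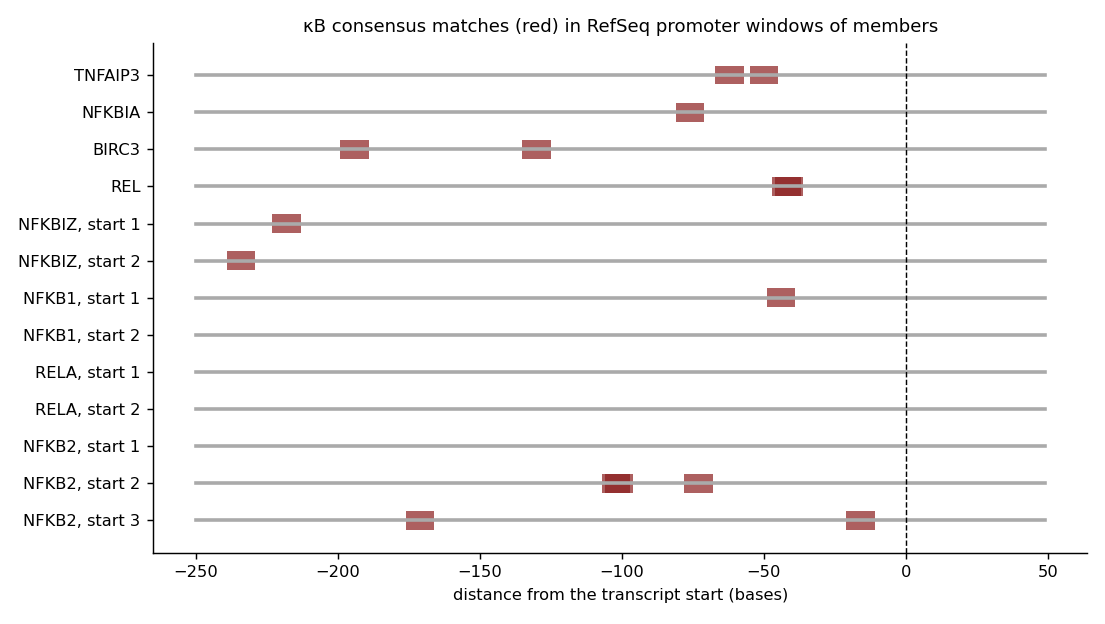
Positions of κB consensus matches (red) in RefSeq promoter windows of 8 members, in bases from the transcript start; each line is 1 window, and members are ordered from the most negative expression difference at the top. Matches are present both in TNFAIP3, NFKBIA and BIRC3 and in the uncalled REL, NFKBIZ, NFKB1 and NFKB2.

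All levels below are log2 signals as deposited, so a difference of 1 is a doubling, and differences are WM266-4 minus WM115. Each was fitted with limma, with line and array version as terms, on 12421 genes whose mean over all arrays reached 3.97, and p-values were adjusted over all of them; genes with an adjusted p below 0.05 were called. All 10 members passed this filter. For most genes in the deposited table the 1.0 pair and the 2.1 arrays had the same mean (the median absolute gap was 0.0041), which shows that array versions had been aligned before deposit. The alignment enters every mean, SD and overlap given over 3 arrays. A difference between lines within 1 array version is free of it only if each gene was shifted by a constant. The method of alignment was not given, so this was not tested. Repeat 1 pairs the lines by array version and RNA kit. Within the 2.1 arrays the labels link the lines only by repeat number, so differences in repeats 2 and 3 depend on that numbering. Several genes named below had a WM266-4 mean under 3.97 and passed the filter by their mean over both lines, mostly through WM115. These were BIRC3, IL1B, IL1A, TNIP3, IL1R1 and TRAF1, and the markers COL3A1 and DSP. Signal over background was not assessed, so the size of their differences is only that of the deposited values. Of 10 melanoma markers, 8 were called higher in WM266-4 and 0 lower, against 13.6% and 13.3% of all genes tested. SOX10 and S100B were not called. SOX10 was 7.90 ± 0.24 in WM115 against 8.09 ± 0.14 in WM266-4 (SD, n = 3 arrays), and S100B was 9.58 ± 0.58 against 9.72 ± 0.58. The S100B difference was -1.17 on the 1.0 pair and 0.81 on the 2.1 arrays. For MLANA, PMEL and DCT it was 6.08, 7.42 and 8.70 on the 1.0 pair and 3.24, 4.29 and 5.29 on the 2.1 arrays. TYR was closer, at 7.28 and 6.73. MITF, MCAM, S100A1 and CSPG4 were higher in WM266-4 by 2.83, 1.93, 1.47 and 1.39. The pigment-cell markers MLANA, PMEL, TYR and DCT were at 2.79 to 3.62 in WM115, under the filter's 3.97. In WM266-4 they were at 7.79 to 10.08, and they passed the filter through that line. Such genes could be called only as higher, so the count of 8 markers is not a fair comparison with the share of all genes. The leukocyte markers were low in both lines, with PTPRC at 2.30 and 2.32, and their mean per array ran from 3.20 to 3.38 in WM115 and from 3.34 to 3.45 in WM266-4. Of 6 tested markers of fibroblasts, endothelial cells and keratinocytes, COL3A1 (-2.01), KDR (-1.91) and DSP (-1.48) were called lower in WM266-4. The mean level of the fibroblast list ran from 4.76 to 5.03 in WM115 and from 4.29 to 4.41 in WM266-4, and markers were at uneven levels. The fibroblast marker FAP was 7.70 in WM115 and 8.04 in WM266-4, and PDGFRA was 4.52 and 3.30. DCN of fibroblasts, CDH5 and VWF of endothelial cells, and KRT5 and KRT14 of keratinocytes were under the filter's level in both lines. The part of these genes in the results below was not tested. RNA came from many cells at once, so fewer expressing cells and less RNA per cell cannot be told apart.

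The 5 subunit genes did not pass the test, while 3 of the 5 inhibitor genes fell in WM266-4. TNFAIP3 was 2.50-fold lower, NFKBIA 1.71-fold lower and BIRC3 1.66-fold lower in WM266-4. By limma 3 of 10 members were called, against 26.9% of all genes tested. Those 3 were lower, against 13.3% of genes tested that were called lower, and 0 were called higher, against 13.6%; at an unadjusted p under 0.05 the counts were also 3 and 0. The lines did not overlap over the 3 arrays each in the same 3 members, against 51.7% of genes tested. The share of members called is thus near the share of all genes. The median difference over the 10 members was -0.15, over the subunits -0.06 and over the inhibitors -0.73, beside 0.01 over all genes tested.

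**Figure D2:**
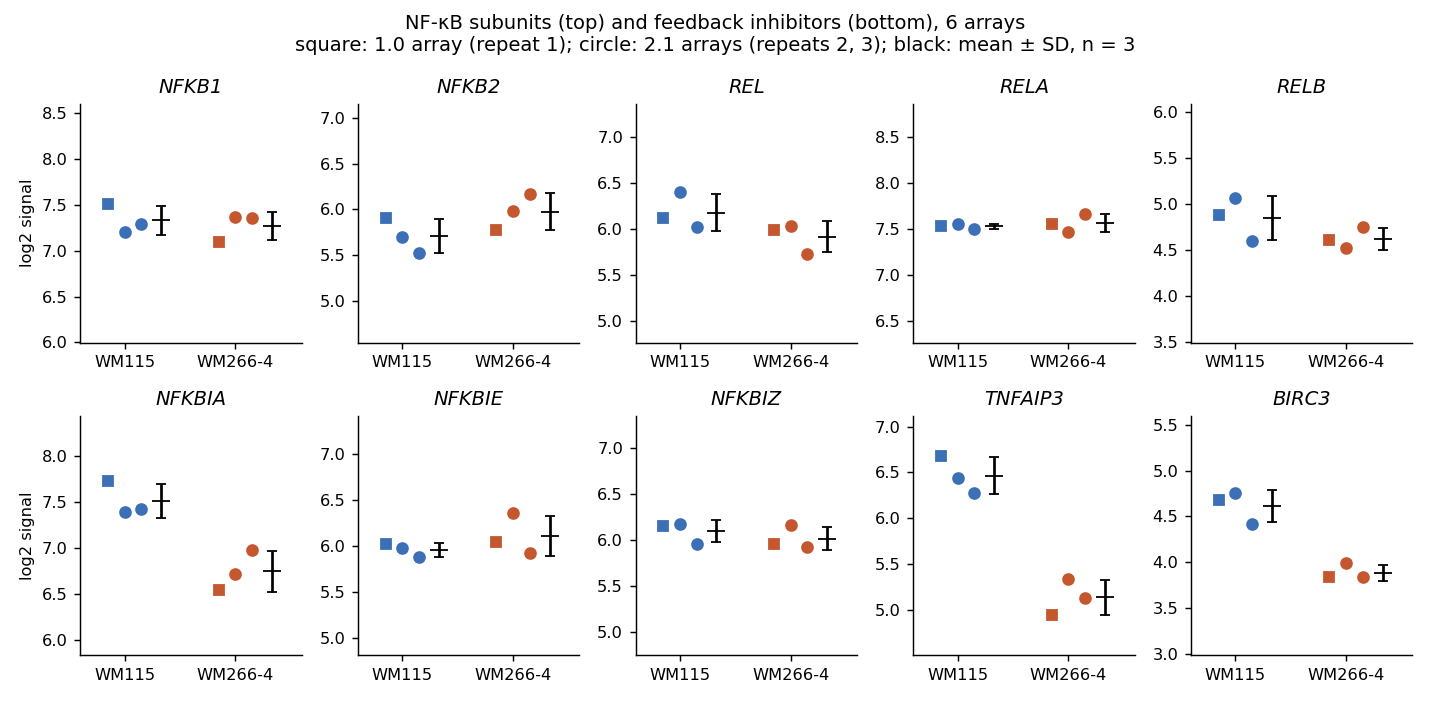
Log2 signal of the 10 members on each of the 6 arrays, subunits in the top row and feedback inhibitors in the bottom row; squares are 1.0 arrays, circles 2.1 arrays, and black bars the mean ± SD of 3 arrays, with the same span of the vertical axis in every panel. TNFAIP3, NFKBIA and BIRC3 show separate lines, and the other 7 panels overlap.

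Among the inhibitors, TNFAIP3 had the largest difference of the set. A20 removes activating ubiquitin chains from signalling proteins upstream of IKK. Its level was 6.68, 6.44 and 6.28 in WM115 repeats 1 to 3 and 4.95, 5.34 and 5.13 in WM266-4. The lowest WM115 array lay above the highest WM266-4 array. The difference was -1.32 (SE 0.16, 95% interval -1.70 to -0.95, limma adjusted p = 0.00305), at -1.72, -1.10 and -1.15 in the 3 repeats. On the 1.0 pair alone it was -1.72 and on the 2.1 arrays -1.12. By size it ranked 352 from the most negative of the 12421 genes.

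NFKBIA encodes IκBα, the inhibitor that holds NF-κB in the cytoplasm and is remade when NF-κB is active. Its level was 7.73, 7.40 and 7.43 in WM115 and 6.55, 6.72 and 6.98 in WM266-4, with no overlap between lines. The difference was -0.77 (SE 0.16, 95% interval -1.16 to -0.38, limma adjusted p = 0.018), at -1.19, -0.68 and -0.45 in the 3 repeats. It was -0.56 on the 2.1 arrays alone (adjusted p = 0.017). The table held a second, dimmer NFKBIA row, with 6.11, 5.66 and 5.52 in WM115 and 4.92, 5.48 and 5.39 in WM266-4. That row gave -1.20, -0.19 and -0.13 in the 3 repeats and was not called in a fit added after the data were examined (-0.51, SE 0.22, adjusted p = 0.14). The 2 rows thus had nearly the same difference on the 1.0 pair and differed on the 2.1 arrays. With the mean of both rows NFKBIA was called (-0.64, adjusted p = 0.045). The call of the brighter row was lost without WM115 replicate 3 (adjusted p = 0.053) or WM266-4 replicate 2 (0.078).

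BIRC3 encodes cIAP2, a ubiquitin ligase of the tumour necrosis factor receptor complex that protects cells from death. Its level was 4.68, 4.75 and 4.42 in WM115 and 3.84, 3.99 and 3.84 in WM266-4. The lines did not overlap, but the signal was low, and the WM266-4 mean of 3.89 lay under the 3.97 below which genes were not tested. BIRC3 passed that filter by its mean over both lines, to which WM115 gave the larger part. The difference was -0.73 (SE 0.13, 95% interval -1.04 to -0.42, limma adjusted p = 0.0098), with -0.84, -0.76 and -0.59 in the 3 repeats.

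NFKBIE and NFKBIZ did not pass the test. NFKBIE encodes IκBε, which holds NF-κB dimers in the cytoplasm as IκBα does. Its level was 6.02, 5.98 and 5.87 in WM115 and 6.04, 6.35 and 5.93 in WM266-4. Of the 2.1 arrays, WM266-4 replicate 2 was the highest, and the lines overlapped. The difference was 0.15 (SE 0.14, 95% interval -0.19 to 0.49, adjusted p = 0.47). NFKBIZ encodes IκBζ, a nuclear IκB protein that acts on the promoters of inflammatory genes. Its level was 6.16, 6.17 and 5.96 in WM115 and 5.96, 6.16 and 5.93 in WM266-4, with the lines overlapping throughout. The difference was -0.08 (SE 0.12, 95% interval -0.37 to 0.21, adjusted p = 0.67), an interval that leaves out a fall as large as that measured for TNFAIP3, NFKBIA or BIRC3.

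**Figure D3:**
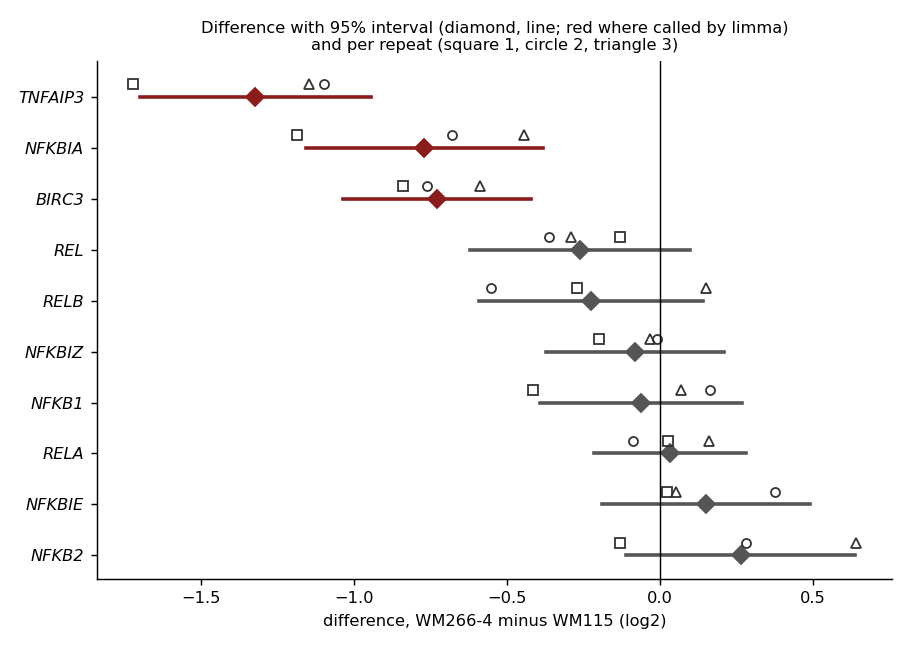
Difference between WM266-4 and WM115 (log2) for each member, with its 95% interval from the limma fit (diamond and line, red where called) and the difference in each repeat (open symbols). TNFAIP3, NFKBIA and BIRC3 lie below 0 in every repeat, but so do the uncalled REL and NFKBIZ, and NFKBIE lies above 0 in every repeat. The intervals of TNFAIP3, NFKBIA and BIRC3 leave out 0, and those of the other 7 members include it.

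Among the subunits, RELA and NFKB1, which form the common p65-p50 dimer, were close in both lines. RELA was 7.53, 7.55 and 7.50 in WM115 and 7.56, 7.47 and 7.66 in WM266-4, and WM266-4 was higher by 0.03 (SE 0.10, 95% interval -0.22 to 0.28, adjusted p = 0.85). The RELA interval allows a change of at most 0.28 in either direction. NFKB1, which encodes the p105 precursor of p50, was 7.51, 7.20 and 7.28 in WM115 and 7.09, 7.36 and 7.35 in WM266-4. Its difference was -0.06 (SE 0.14, 95% interval -0.39 to 0.27, adjusted p = 0.78). On the 1.0 pair WM266-4 was lower, at -0.42, and on the 2.1 arrays both WM266-4 values lay above both WM115 values.

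NFKB2 encodes p100, which is both an IκB-like inhibitor and the precursor of p52 in the non-canonical pathway, and RELB encodes its usual partner. NFKB2 was 5.90, 5.70 and 5.53 in WM115 and 5.77, 5.98 and 6.17 in WM266-4. On the 2.1 arrays both WM266-4 values lay above both WM115 values, and on the 1.0 pair WM266-4 was the lower. The difference was 0.27 (SE 0.16, 95% interval -0.11 to 0.64, adjusted p = 0.25) over all arrays. It was called on the 2.1 arrays alone (0.46, SE 0.14, adjusted p = 0.035), which is also the fit without replicate 1 of either line, and where 31.5% of genes tested were called. RELB was 4.88, 5.07 and 4.60 in WM115 and 4.61, 4.52 and 4.76 in WM266-4, which left WM266-4 at -0.22 relative to WM115 (SE 0.15, 95% interval -0.59 to 0.14, adjusted p = 0.32). REL, which encodes c-Rel, was 6.12, 6.40 and 6.02 in WM115 and 5.99, 6.04 and 5.73 in WM266-4. The lines overlapped, and the difference of -0.26 did not pass (SE 0.15, 95% interval -0.62 to 0.10, adjusted p = 0.245).

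In a limma test of whether the line difference changed with array version, 0 of 10 members passed, against 5.45% of genes tested. At an unadjusted p under 0.05 there were 4: TNFAIP3, NFKBIA, NFKB1 and NFKB2 (adjusted p from 0.22 to 0.24). The share of all genes at that unadjusted cut was not counted, so the 4 of 10 have no background here. In these 4 the later arrays gave a higher WM266-4 value relative to WM115 than the first pair, by 0.53 to 0.63. The first repeat had 1 array per line, so this test takes its error from repeats 2 and 3.

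Genes that act above NF-κB were taken from lists by role. All role lists, like the members, were chosen with earlier results of these data known, so their counts are description only. Of 12 tested receptors that signal to NF-κB, 8 fell, 1 rose and 3 were not called. Over all genes tested, 13.3% were called lower and 13.6% higher. The list median was -0.64. TLR4, the receptor for bacterial lipopolysaccharide, went from 8.0 ± 0.19 in WM115 to 4.83 ± 0.19 in WM266-4 (difference -3.17, SE 0.15, adjusted p = 0.00015). IL1R1, the signalling receptor of interleukin-1, went from 6.17 ± 0.27 to 3.80 ± 0.19, which is under the 3.97 of the filter (-2.37, SE 0.18, adjusted p = 0.00076). IL1RAP, the accessory chain that IL1R1 needs for signalling, was higher in WM266-4, at 7.26 ± 0.35 against 5.75 ± 0.44 (1.51, SE 0.27, adjusted p = 0.011). The count of 9 called receptors was 3 without WM266-4 replicate 2 and 5 without WM266-4 replicate 3. The IL1RAP call was lost without either (adjusted p = 0.057 and 0.0502).

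Of 6 tested ligands, 2 fell and 1 rose, against 13.3% and 13.6% of all genes tested, with a median of -0.15. IL1B and IL1A, the activating interleukin-1 ligands, were at 9.15 and 7.69 in WM115 and at 2.63 and 2.99 in WM266-4, where both lay under the filter's 3.97. Their differences were -6.53 (SE 0.28) and -4.70 (SE 0.21). TNFSF13B, the B-cell activating factor BAFF, was higher in WM266-4 by 1.70 (SE 0.18, adjusted p = 0.0021). TNF itself was at 3.60 in WM115 and 3.74 in WM266-4, under the level at which genes were tested.

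Of 17 genes of the IKK complex and upstream kinases, 4 rose, 5 fell and 8 were not called. The shares of all genes tested were 13.6% higher and 13.3% lower. The list median was -0.21. IRAK2 and RIPK1 had the largest decreases. IRAK2, a kinase of interleukin-1 and Toll-like receptor signalling, fell by 1.36 (SE 0.26, adjusted p = 0.013). RIPK1, a kinase of the tumour necrosis factor receptor complex, fell by 1.12 (SE 0.12, adjusted p = 0.0021). TAB3, an adaptor of the kinase TAK1, and IRAK4, the first kinase recruited by MYD88, were 0.69 and 0.68 higher in WM266-4 (SE 0.11 for both, adjusted p = 0.0073 and 0.0076). The count of 9 was 4 without WM115 replicate 2, WM266-4 replicate 2 or WM266-4 replicate 3, and 5 without WM115 replicate 3. The IRAK2 call was lost without WM115 replicate 2 (adjusted p = 0.057), WM266-4 replicate 2 (0.064) or WM266-4 replicate 3 (0.054).

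Of 16 tested TRAF adaptors and ubiquitin ligases, 1 rose and 2 fell, against 13.6% and 13.3% of all genes tested. The list median was -0.19. TRAF5, an adaptor of tumour necrosis factor family receptors, was higher by 0.82 (SE 0.24, adjusted p = 0.047). MALT1 and BCL10, partners in a complex that relays signals to IKK, fell by 0.51 and 0.38 (adjusted p = 0.027 and 0.037). The count of 3 was 0 without WM266-4 replicate 3 and without either of WM115 replicates 2 and 3, was 1 without WM266-4 replicate 2, and was 5 without replicate 1 of either line.

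Other deubiquitinases, A20 partners and IκB proteins were examined beside the members. Of 11 tested deubiquitinases and A20 partners, 3 fell, 0 rose and 8 were not called, with a median of -0.18. Among all genes tested, 13.3% were called lower and 13.6% higher. By limma 1 of the list was higher at an unadjusted p under 0.05. TNIP3, an A20-binding inhibitor of NF-κB, went from 5.70 ± 0.68 in WM115 to 2.73 ± 0.75 in WM266-4. The change was -2.97 (SE 0.47, adjusted p = 0.0073), with the WM266-4 mean under the filter's 3.97. CYLD, a deubiquitinase that restrains IKK, went from 7.10 ± 0.36 to 5.65 ± 0.36, which was -1.45 (SE 0.25, adjusted p = 0.0092). Among 3 further IκB proteins, BCL3, a nuclear IκB protein that binds p50 and p52, went from 6.69 ± 0.16 to 5.89 ± 0.14. That was a fall of 0.80 (SE 0.13, adjusted p = 0.0083), and NFKBIB and NFKBID did not pass.

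Of 20 tested genes commonly listed as NF-κB targets, 5 fell, 2 rose and 13 were not called. Beside this, 13.3% of all genes tested were called lower and 13.6% higher. The list median was -0.28. PTX3, a secreted pattern-recognition protein, went from 8.02 ± 0.75 to 6.03 ± 0.81 (-1.99, SE 0.51, adjusted p = 0.034), and IER3, an early-response survival gene, from 10.20 ± 0.11 to 8.93 ± 0.11 (-1.27, SE 0.12, adjusted p = 0.0015). BCL2A1, an anti-apoptotic BCL2 relative, was higher in WM266-4 by 1.51 (SE 0.10, adjusted p = 0.00060). The adhesion molecule ICAM1 was higher by 0.62 (SE 0.12, adjusted p = 0.013). Listed targets were thus called in both directions. The count of 7 was 12 on the 2.1 arrays alone, as it was without replicate 1 of either line, and 4 without WM266-4 replicate 2. The PTX3 call was lost with a robust prior (adjusted p = 0.063). It was also lost on leaving out any 1 of the 2.1 arrays, with an adjusted p of 0.096 without WM266-4 replicate 3 and 0.101 without each of WM266-4 replicate 2, WM115 replicate 2 and WM115 replicate 3. The ICAM1 call was lost without WM115 replicate 3 (0.051) or WM266-4 replicate 2 (0.061).

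**Figure D4:**
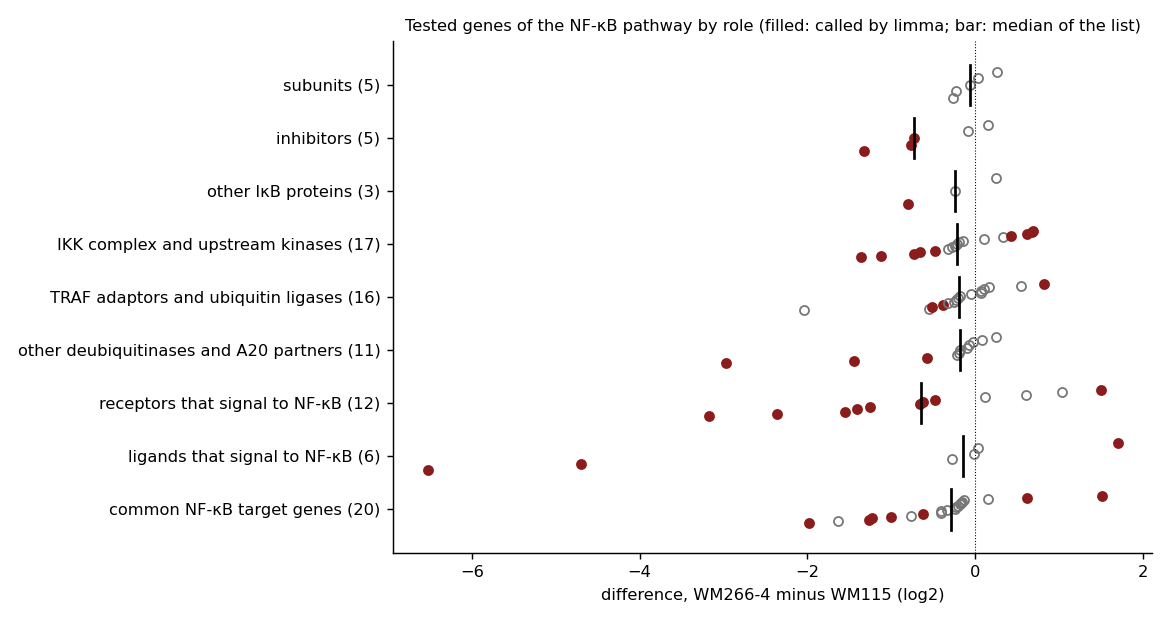
Difference between WM266-4 and WM115 (log2) of each tested gene of the NF-κB pathway, grouped by role with the number tested in brackets; filled points were called by limma and the black bar is the list median. The 5 subunits lie within 0.27 of 0, and receptors and ligands include the largest differences, down to -6.53 for IL1B.

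The genes whose profile over the 6 arrays was nearest to that of TNFAIP3, the member with the largest difference, were KIAA0232, the taurine transporter SLC6A6 and the transcriptional corepressor TLE4. Their Euclidean distances from TNFAIP3, after centring each gene on its mean, were 0.17, 0.17 and 0.24 log2 units over 6 arrays. Their differences were -1.26, -1.45 and -1.26. With 2 lines, likeness over 6 arrays mostly reflects a similar difference between the lines.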

How the data were processed

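RNA of 6 samples was measured on Affymetrix arrays, and Affymetrix Expression Console and RMA were used per the submitters' processing notes, with versions not given in the sources used here. The log2 values deposited by the authors were used as given, with no further normalization. The gene-named table had 18887 rows; 25 read-through rows and 1117 dimmer rows of repeated symbols were left out, leaving 17745 genes. No 2 columns were identical. Array medians ran from 6.12 to 6.18, and replicates of a line differed with an SD of 0.22 to 0.34 over genes. Precision is limited by the number of arrays. The per-version value tables were not used here, because no gene names were paired with their probe sets, so that alternative was not run.

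limma 3.58.1 in R 4.3.3 (lmFit, eBayes with a constant prior) was fitted with line and array version as terms, leaving 3 residual and adding 3.38 prior degrees of freedom. Benjamini-Hochberg adjustment covered the 12421 genes at or above the 30th percentile of the mean. The fit was tested on simulated data. Levels carry the SD of 3 arrays and differences the standard error from limma.

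The members and lists were chosen with earlier results of these data known. The rule for names took all members, up to 2 called genes per related list and direction, and the 3 genes with the nearest profile. Marker genes, TNF, NFKBIB, NFKBID, the second NFKBIA row and 6 genes of the array-version test were named outside it. Of the list genes, 149 were in the table and 4 are not analysed here. Promoter windows are from RefSeq, GRCh38.p14. Alternatives covered the filter, the covariates, the arrays, the prior, the scaling and repeated symbols.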

Additional observations from a re-analysis of the deposited data

Results flagged for a closer look

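In a limma test of whether the line difference changed with array version, 9 of 85 tested pathway genes outside the members passed at an adjusted p under 0.05, and none of the 10 members did; 5.45% of genes tested passed. Of the 9, 3 are named by rule. CYLD was -0.66 in the first repeat and -1.70 and -2.0 in the later ones, so the later arrays differed from the first pair by -1.19 (adjusted p = 0.029). IRAK2 was -0.56, then -1.49 and -2.04, a change of -1.20 (adjusted p = 0.047). TNIP3 was -1.32, then -3.82 and -3.78, a change of -2.48 (adjusted p = 0.00077), with a WM266-4 mean under the filter's 3.97. These 3 genes were lower in WM266-4 in every repeat.

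The other 6 fall outside the naming rule and were named after their values were seen, and 3 of the 9 had opposite signs on the 1.0 pair and in the mean of the 2.1 arrays: NGFR, TNFAIP6 and LIF. NGFR, a neurotrophin receptor, was -2.17 on the 1.0 pair and 2.64 on the 2.1 arrays, a change of 4.82 (adjusted p = 0.00056). TNFAIP6, a secreted hyaluronan-binding protein, was -2.86 and 0.94, a change of 3.80 (adjusted p = 0.00066). LIF, a cytokine, was 1.05 and -0.30, a change of -1.35 (adjusted p = 0.016). The changes were 4.03 in CCL2, 3.68 in TRAF1 and -1.54 in TNFRSF11A, with the mean of WM266-4 the lower on both versions (adjusted p = 0.0019, 0.0011 and 0.013). Array version, RNA kit and repeat changed together and cannot be told apart.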

How the results depend on the processing

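Of the members, TNFAIP3 was called in all 16 alternatives (-1.44 to -1.12, limma adjusted p up to 0.019). BIRC3 was called in all 15 in which it was tested (adjusted p up to 0.048). With the filter at the 50th percentile BIRC3 and RELB were not tested. The 2.1 arrays alone and the fits without replicate 1 of either line gave the same values. They are therefore not separate checks. The NFKB1 difference turned to 0.12 on the 2.1 arrays alone and ranged from -0.14 to 0.12 on leaving out 1 array, turning positive without WM115 or WM266-4 replicate 1. The RELA difference ranged from -0.024 to 0.087 and turned negative without WM266-4 replicate 3. Members called higher numbered 1 (NFKB2) on the 2.1 arrays alone. On leaving out 1 array, members called ranged from 2 to 4, those higher from 0 to 1, those lower from 2 to 3, and related genes called, 35 over all arrays, from 18 to 43. The count of all genes called, 3341, ranged from 1396 to 3913, higher genes from 681 to 1973 and lower genes from 715 to 1940. With replicate numbers as a block 2398 genes were called, 2369 of them among the 3341, and the same 3 members, while the calls of BCL10, MALT1 and PTX3 were lost (adjusted p = 0.059, 0.053 and 0.075). Deviations of same-numbered arrays correlated at -0.998, -0.262 and -0.396, the first fixed by the removal of the version effect. Deviations within a line sum to 0, so that effect enters repeats 2 and 3 as well. The correlations therefore cannot show whether same-numbered arrays were paired. TRAF5 was not called with no filter (adjusted p = 0.058), a robust prior (0.051) or median centring (0.055). MALT1 was not called on the 2.1 arrays alone (0.051).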
